A study of Mus musculus with 6 samples.

Results

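Yap1 and Taz are paired transcriptional coactivators at the end of the Hippo pathway. The 10 genes described here are Yap1, Wwtr1 (the gene that encodes Taz, not tafazzin), the DNA-binding partners Tead1 to Tead4, the kinases Lats1 and Lats2, and 2 cytoplasmic regulators, Amotl2 and Ajuba. They were chosen by symbol, and each symbol matched 1 of the 55401 Ensembl gene identifiers in the count table. All 10 members were among the 14661 genes that passed the filter on low counts. ADC106 is a line of cultured mouse angiosarcoma cells, a malignancy of vessel-lining cells, recorded as wild type (WT). One group received an NC mimic and the other a miR-497 mimic, each at 12.5 nM, and RNA was taken on day 3 from 3 libraries per group. A mimic is a short synthetic RNA that stands in for a mature microRNA, so the comparison asks which transcripts differ when miR-497 is supplied in excess. All samples came from this 1 line, no untransfected cells were analysed here, and nothing in the labels says whether the 3 libraries of a group were separate cultures, so the p-values measure only the spread between these libraries.

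When the Hippo kinase cascade is active, the Lats kinases phosphorylate Yap1 and Taz, which are then held in the cytoplasm or degraded. When it is inactive, both coactivators enter the nucleus and bind Tead proteins, which sit on DNA and drive genes of growth, matrix and cytoskeleton. In vessel-lining cells, Yap1 and Taz respond to stretch, flow and growth-factor signals and take part in sprouting. Some of their target genes encode their own restraints, among them Lats2 and Amotl2.

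The seed of miR-497, bases 2 to 8 from the 5′ end, is shared with the miR-15, miR-16 and miR-195 family, and it defines which transcript words can pair with the mimic. The mature sequences below are from RefSeq (GRCm38.p6), 5′ to 3′, with the seed in capitals. The labels do not give the sequence of the mimic or its strand, and the mouse entry named miR-497a-5p is taken here as its guide.
mmu-miR-497a-5p: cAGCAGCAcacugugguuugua
mmu-miR-195a-5p: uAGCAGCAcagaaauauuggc
mmu-miR-16-5p: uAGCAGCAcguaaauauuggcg
mmu-miR-15a-5p: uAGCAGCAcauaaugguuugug

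A 3′ UTR match to this seed was counted when it was TGCTGCT (7mer-m8), TGCTGCTA (8mer) or GCTGCTA (7mer-A1). In the longest annotated 3′ UTR, 6 of the 10 members held at least 1 such match, against 28.1% of the 12860 tested genes with a 3′ UTR. A longer 3′ UTR has more room for a match, and the median over tested genes was 1187 bases. Those of the 6 members with a match ran from 1223 bases in Tead4 to 8147 in Tead1. The part of length in this count was not tested. None of the 6 held an 8mer. Each match is shown in its 30-base window on the transcript strand, 5′ to 3′, ending opposite base 1 of the microRNA, with the match in capitals. Coordinates of the windows are GRCm38, from the GENCODE M21 annotation.
Yap1, 7mer-A1, chr9:7932857-7932886, minus strand: aacaattttcccccctggctaaaGCTGCTA
Lats1, match 1, chr10:7713648-7713677, plus strand: tttgtttccagattggtattaaTGCTGCTt
Lats1, match 2, chr10:7715599-7715628, plus strand: ccagttctcccagcataggagtTGCTGCTt
Lats1, match 3, chr10:7716011-7716040, plus strand: cagtgggaggagtttttagataTGCTGCTg
Lats1, match 4, chr10:7716014-7716043, plus strand: tgggaggagtttttagatatgcTGCTGCTg
Amotl2, 7mer-m8, chr9:102733338-102733367, plus strand: ttacgccactctgtaccaggatTGCTGCTg
Tead4, 7mer-m8, chr6:128227980-128228009, minus strand: agctgctggaacctcacactccTGCTGCTg
Tead1, 7mer-m8, chr7:112906191-112906220, plus strand: agtggctcttttgatactgtacTGCTGCTg
Lats2, 7mer-m8, chr14:57691021-57691050, minus strand: aaggactgactgtgagaaaccaTGCTGCTg

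Lats1 stood out by number, with 4 matches in a 3′ UTR of 3450 bases. Having 4 or more was rare, at 1.24% of the tested genes that have a 3′ UTR, a share not matched for length. Matches 3 and 4 of Lats1 overlap each other, and all 4 lie in only 1 of its 3 protein-coding transcripts with a 3′ UTR. The single match of Yap1 was in both of its transcripts, and that of Amotl2 was in all 3. Tead4 carried its match in 1 of 3 transcripts, Tead1 in 2 of 4 and Lats2 in 1 of 4. With the shortest 3′ UTR of each gene, only Yap1 and Amotl2 kept a match, 2 of 10 members beside 16.6% of tested genes. Wwtr1, Tead2, Tead3 and Ajuba had none in the longest 3′ UTR, although the coding sequence of Ajuba held 3 and that of Tead2 held 1. Lats1 and Lats2 also held 1 each in the coding sequence. A coding match was found in 39.9% of tested genes, and 3 or more in 6.91%. The counts do not tell which transcripts these cells made.

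The libraries held 25777676 to 36159499 counts. No 2 libraries matched within sampling noise, with a chi-square per degree of freedom of 7.64 to 11.8 within groups and 91.98 to 112 between them. The share of counts from mitochondrial genes was 2.11% ± 0.0698 with NC and 3.30% ± 0.428 with miR-497 (SD, n = 3; exact permutation test, 2-sided, p = 0.1, the smallest that 3 against 3 allows), and its part in the results below was not tested. All 10 endothelial markers were at a mean of at least 1 CPM (counts scaled to library size), and their summed level was 8584 to 9306 CPM with NC and 8380 to 8845 CPM with miR-497. Single endothelial markers moved both ways within that sum: 7 were higher, led by Emcn (log2 fold change 1.03), 2 were lower (Pecam1 at -0.52 and Flt1 at -0.40), and Kdr did not pass. Of 7 fibroblast markers, 5 reached 1 CPM, with Lum at 0, and their sum was 306 to 329 CPM and 450 to 540.1 CPM. Within that list Col1a1 and Col1a2 were higher (log2 fold changes 0.84 and 1.15), Col3a1 and Pdgfrb were lower (-0.79 and -0.37), and Pdgfra did not pass. Of 5 smooth muscle markers, 2 reached it, with sums of 40.7 to 42.8 CPM and 75.9 to 82.2 CPM. Leukocyte markers (1 of 6 at 1 CPM, with Cd3e and Itgam among those at 0) summed to 8.21 to 8.60 CPM and 14.98 to 19.8 CPM, and epithelial markers (0 of 6) to at most 1.63 CPM. Nearly all of the leukocyte sum was Cd68, at a mean of 8.25 CPM with NC and 17.5 CPM with miR-497. Ptprc was at 0.156 and 0.185 CPM. In Itgam, 68.7% of exon bases are shared with another gene on the same strand, so its level is uncertain. The part of these shifts in the results below was not tested. In bulk RNA, fewer cells of a type and less RNA per cell cannot be told apart.

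The members formed 2 groups by level. Levels between genes are compared as RPKM, reads per kilobase of exon scaled to library size. With NC, Wwtr1 was the most abundant at 74.7 ± 5.10 RPKM (SD, n = 3). It was followed by Tead4 at 30.7 ± 1.10, Yap1 at 25.8 ± 1.15, Amotl2 at 23.1 ± 0.400 and Tead2 at 22.6 ± 1.02 RPKM. The Lats1, Tead1 and Ajuba levels lay together at 13.1 ± 0.435, 12.3 ± 0.734 and 12.1 ± 0.0399 RPKM. Tead3 and Lats2 were near the floor, at 0.388 ± 0.0679 and 0.0706 ± 0.0459 RPKM. Neighbours in this order whose NC libraries overlapped were Amotl2 with Tead2, Lats1 with Tead1, and Tead1 with Ajuba. The ADC106 cells therefore contained Taz transcript above Yap1 transcript in every library, Lats1 far above Lats2, and all 4 Tead transcripts, with Tead3 far below the other members of its family. With miR-497 the order changed in the middle: Yap1 moved from rank 3 to rank 5 and Lats1 from rank 6 to rank 8, below Ajuba. Exon length is that of all annotated exons together, 13570 bases for Tead1, and which transcripts these cells made was not measured.

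**Figure D1:**
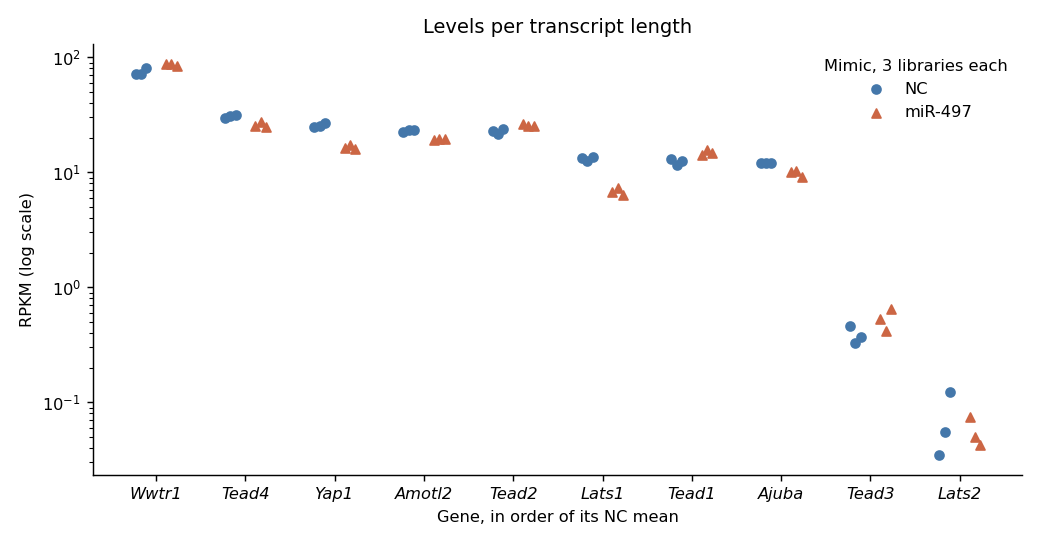
RPKM on a log axis for the 10 members, in the order of their NC mean, with circles for the 3 NC libraries and triangles for the 3 miR-497 libraries. Wwtr1 lies highest in both groups, Tead3 and Lats2 lie below 1 RPKM, and Yap1 and Lats1 show the clearest gaps between circles and triangles.

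With miR-497, 5 members fell (Yap1, Lats1, Tead4, Amotl2 and Ajuba), 3 rose (Wwtr1, Tead1 and Tead2) and 2 did not pass the test (Tead3 and Lats2). The test was edgeR's quasi-likelihood F-test over all genes, with a Benjamini-Hochberg adjusted p under 0.05 as the threshold. By that rule 26.0% of all tested genes were lower, 23.8% were higher and 49.8% were called in either direction. The groups did not overlap for 8 of the 10 members, against 57.4% of all tested genes. No member changed by 2-fold or more. The members' median log2 fold change was -0.25, beside -0.02 over all tested genes, and the fold changes ran from -0.96 to 0.45. The members thus did not move one way: each of the pairs Yap1 and Wwtr1, and Tead4 and Tead1, contained 1 gene that fell and 1 that rose.

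**Figure D2:**
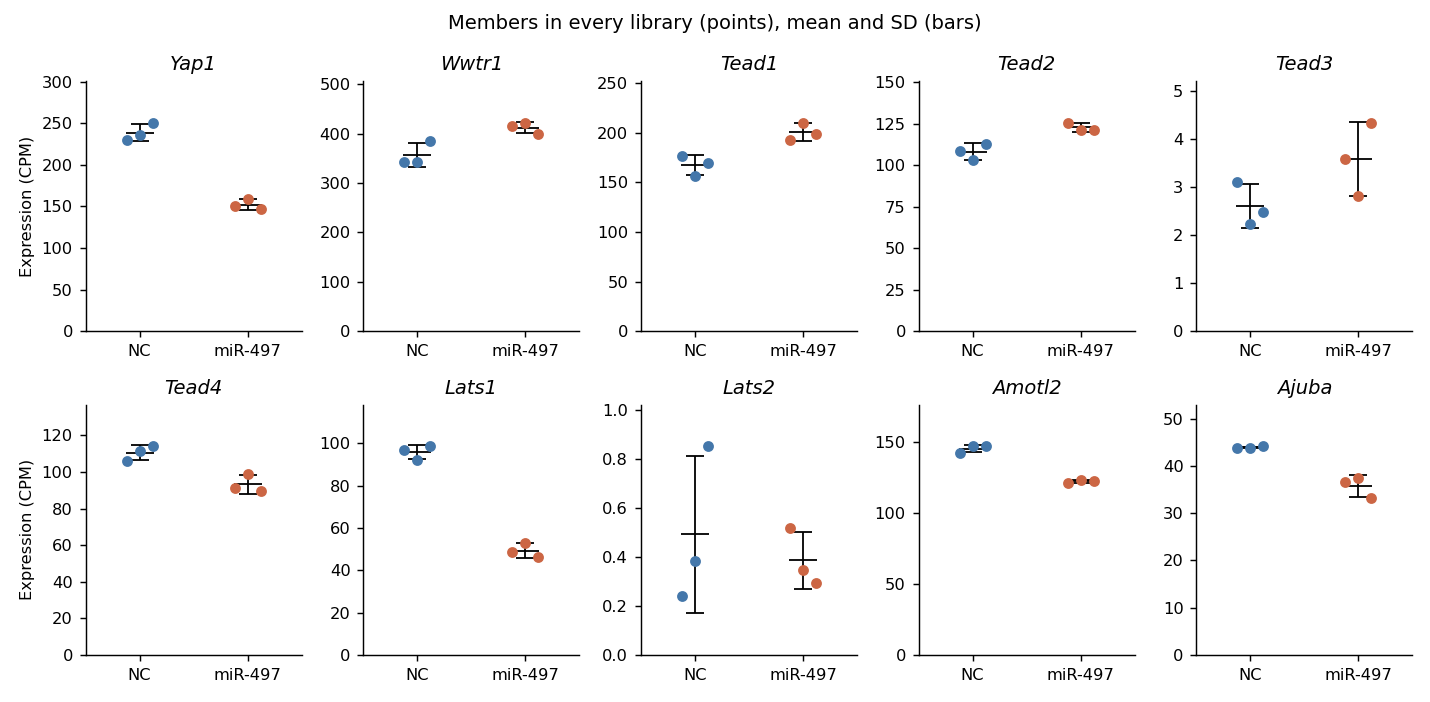
Expression in CPM for the 10 members, 1 panel per gene with its own axis from 0, with points for libraries and bars for the mean and SD of 3 libraries. The points of the 2 groups are apart in 8 panels and overlap for Tead3 and Lats2.

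Yap1 (ENSMUSG00000053110, chr9:7931999-8004596, minus strand) is the better known of the 2 coactivators. It measured 230.03, 236 and 251 CPM in NC libraries 1 to 3 and 151, 159 and 147 CPM in miR-497 libraries 1 to 3. Every miR-497 library was lower than every NC library, and the gap between the groups was wider than the range within either. The mean went from 239 ± 10.7 to 152 ± 6.53 CPM (SD, n = 3), to 63.7% of the NC level, a log2 fold change of -0.65 (standard error 0.0547, with an adjusted p in edgeR of 4.6e-08). This is the gene with the GCTGCTA match shown above, which lies at base 1634 of a 3′ UTR of 2498 bases.

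Wwtr1 (ENSMUSG00000027803, chr3:57455649-57575910, minus strand), which encodes Taz, measured 342, 343 and 385 CPM with NC and 415, 422 and 399.9 CPM with miR-497. The miR-497 libraries all lay above the NC libraries, though NC library 3 came close to miR-497 library 3. The mean rose from 357 ± 24.4 to 412 ± 11.2 CPM (SD over 3 libraries), a log2 fold change of 0.21 (standard error 0.0575, with an adjusted p in edgeR of 0.0062). Without NC library 2 the log2 fold change was 0.18 and the call was lost (edgeR adjusted p = 0.068).

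The balance of the coactivator transcripts shifted from Yap1 towards Wwtr1. Per length, Yap1 made up 25.8%, 26.2% and 25.2% of the summed Yap1 and Wwtr1 level in the NC libraries, and 15.8%, 16.3% and 15.9% in the miR-497 libraries. These shares do not overlap and lie close together within each group. The log2 ratio of Yap1 to Wwtr1 was -1.53 ± 0.0389 with NC and -2.39 ± 0.0299 with miR-497 (SD, n = 3), a difference of -0.86 (exact permutation test, 2-sided, p = 0.1, the smallest that 3 against 3 allows). The sum of the 2 levels was 100.5 ± 6.22 RPKM and 103 ± 3.00 RPKM (SD, n = 3), and its libraries overlapped between groups. The shares and this sum depend on the lengths used, 9257 bases for Yap1 and 4779 for Wwtr1. By CPM, without length, the sum also overlapped, but its mean was lower with miR-497 than with NC.

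The Tead proteins carry the DNA-binding domain that Yap1 and Taz lack. Tead4 (ENSMUSG00000030353, chr6:128224288-128300823, minus strand) measured 106, 112 and 114 CPM with NC and 91.2, 99.03 and 89.3 CPM with miR-497. All 3 miR-497 libraries were below all 3 NC libraries, and the mean fell from 111 ± 3.98 to 93.2 ± 5.14 CPM (SD over 3 libraries; log2 fold change -0.25, standard error 0.0578, with an adjusted p in edgeR of 0.0019). Tead1 (ENSMUSG00000055320, chr7:112679318-112906807, plus strand) measured 177, 157 and 169 CPM with NC and 193, 210.02 and 199 CPM with miR-497. Its groups were apart in the opposite direction, with a log2 fold change of 0.26 (standard error 0.0571, with an adjusted p in edgeR of 0.0011). Tead2 (ENSMUSG00000030796, chr7:45215753-45233644, plus strand) measured 109, 103 and 113 CPM with NC and 126, 122 and 121 CPM with miR-497. The 0.18 log2 rise of Tead2 (standard error 0.0534, with an adjusted p in edgeR of 0.0093) was the smallest change among the members called. Without NC library 2 it was 0.15 and no longer called (edgeR adjusted p = 0.099).

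Tead3 (ENSMUSG00000002249, chr17:28331671-28350817, minus strand) was measured by far fewer reads, with 103, 81 and 70 counts in the NC libraries and 90, 89 and 132 counts in the miR-497 libraries. Its values were 3.11, 2.22 and 2.49 CPM with NC and 3.58, 2.80 and 4.33 CPM with miR-497, and the groups overlapped. The log2 fold change was 0.45 (standard error 0.244, with an adjusted p in edgeR of 0.13), with a 95% confidence interval from -0.06 to 0.97. A rise as large as those of Tead1 and Tead2 lies inside that interval and was not detectable at this depth.

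Per length of all annotated exons, the family total overlapped between groups while the shares of Tead1, Tead2 and Tead4 did not. The summed level of Tead1 to Tead4 was 66.1 ± 1.85 RPKM with NC and 66.9 ± 1.74 RPKM with miR-497 (SD, n = 3). Tead4 supplied 46.5% ± 1.58 of the sum with NC and 38.7% ± 1.12 with miR-497. Tead2 supplied 34.2% ± 0.666 and 38.4% ± 1.37, and Tead1 18.7% ± 1.001 and 22.1% ± 0.602. Thus, per length of all annotated exons, Tead4 was the leading Tead transcript with NC, and Tead4 and Tead2 were at overlapping levels with miR-497. That order and the overlap of the total depend on the lengths used, 13570 bases for Tead1 and 3598 for Tead4. By CPM, without length, Tead1 was the highest with NC, at a mean of 167 beside 111 for Tead4. The summed CPM of the family was higher in every miR-497 library than in every NC library. These shares are descriptions with no test.

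**Figure D3:**
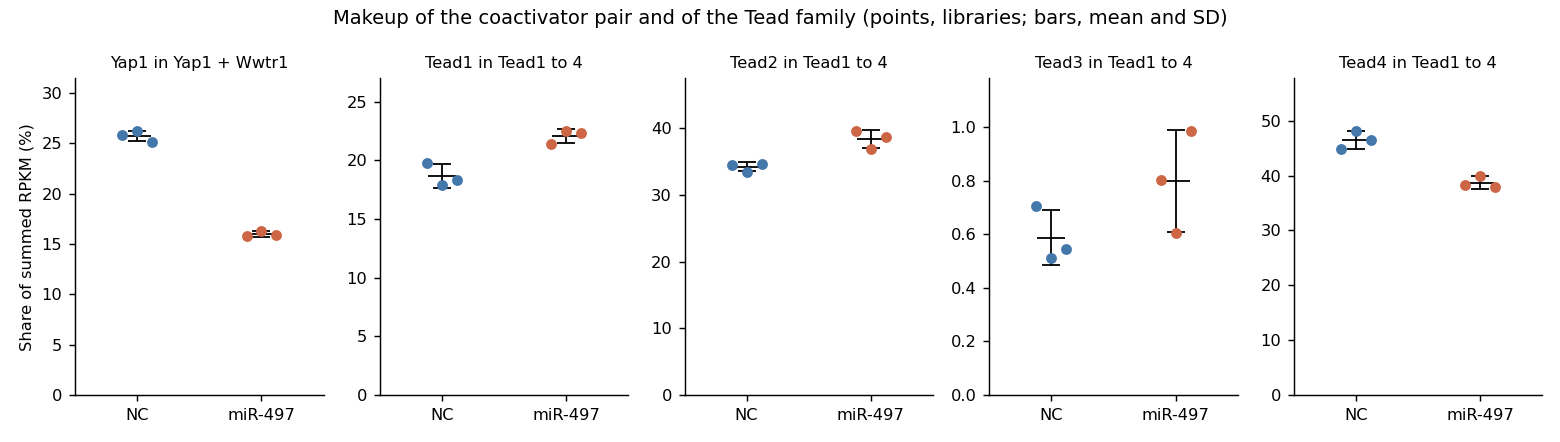
Share of Yap1 in the summed RPKM of Yap1 and Wwtr1, and of each Tead gene in the summed RPKM of Tead1 to Tead4, in percent, with points for libraries and bars for the mean and SD of 3 libraries. The Yap1 share is near 26% in NC and 16% in miR-497 libraries, and the Tead4 share is lower and the Tead1 and Tead2 shares higher in every miR-497 library.

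Lats1 (ENSMUSG00000040021, chr10:7681214-7716460, plus strand) encodes a kinase that phosphorylates Yap1 and Taz, and it had the largest change among the members that passed the test. It measured 96.7, 92.4 and 98.6 CPM with NC and 48.8, 53.04 and 46.2 CPM with miR-497. The groups were far apart, with the highest miR-497 library well below the lowest NC library. The mean fell from 95.9 ± 3.18 to 49.4 ± 3.45 CPM (SD, n = 3), to 51.5% of the NC level, a log2 fold change of -0.96 (standard error 0.0654, with an adjusted p in edgeR of 3.7e-09). Of the seed matches printed above, 4 belong to this gene. Yap1, Tead4 and Amotl2 also held a match and fell. Tead1 held a match and rose, and Ajuba fell with none in its 3′ UTR.

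Lats2 (ENSMUSG00000021959, chr14:57689662-57758388, minus strand), the paralogous kinase, had only 8, 14 and 24 counts in the NC libraries and 13, 11 and 9 counts in the miR-497 libraries. The groups overlapped and NC library 3 was the highest of the 6. The log2 fold change of -0.34 had a standard error of 0.56 (edgeR adjusted p = 0.65) and a 95% confidence interval from -1.52 to 0.85, and without NC library 3 it was 0.29. In the M21 annotation, 42.4% of the exon bases of Lats2 are shared with a readthrough gene on the same strand, Gm49361, which itself had 12 to 28 counts per library. The other 57.6% of its exon bases belong to Lats2 alone on that strand. How reads in shared exons were assigned is not given in the sources used here, so the Lats2 level is uncertain. The log2 ratio of Lats1 to Lats2 was 7.74 ± 0.902 with NC and 6.97 ± 0.412 with miR-497 (SD, n = 3), with overlapping groups and no difference beyond that spread (exact permutation test, 2-sided, p = 0.3).

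Amotl2 and Ajuba encode proteins that act on the cascade from the cell junctions: angiomotin-like 2 binds Yap1 and Taz and keeps them out of the nucleus, while the LIM protein Ajuba binds the Lats kinases and restrains them. Amotl2 (ENSMUSG00000032531, chr9:102716672-102733418, plus strand) measured 142, 147 and 147 CPM with NC and 121, 123 and 122 CPM with miR-497. Its 3 libraries lay close together in each group, and the mean fell from 145 ± 2.52 to 122 ± 0.840 CPM (SD over 3 libraries; log2 fold change -0.25, standard error 0.0489, with an adjusted p in edgeR of 4e-04). Ajuba (ENSMUSG00000022178, chr14:54567472-54577558, minus strand) measured 43.9, 43.9 and 44.2 CPM with NC and 36.7, 37.5 and 33.2 CPM with miR-497. It fell to 81.4% of the NC level (log2 fold change -0.30, standard error 0.0706, with an adjusted p in edgeR of 0.0021), with every miR-497 library below every NC library. The 2 regulators that fell are one that restrains the coactivators and one that restrains their kinases.

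The wider pathway was read from a list of 18 kinases, adaptors and scaffolds that act on Yap1 and Taz. All 18 were tested, 4 were higher and 4 lower, 10 did not pass, and the median log2 fold change was -0.0035. The called share of 44.4% is close to the 49.8% of all tested genes. The lower genes were led by Stk38l, a kinase of the same family as Lats1, with 34.9, 39.9 and 38.9 CPM with NC and 13.9, 16.1 and 15.5 CPM with miR-497 (log2 fold change -1.31, standard error 0.0860, with an adjusted p in edgeR of 2.3e-09). Its groups were widely separated, and its longest 3′ UTR, of 3091 bases, held 3 matches to the seed and its shortest 2. Amot, the founding angiomotin, measured 13.8, 14.2 and 16.8 CPM with NC and 7.28, 7.71 and 4.66 CPM with miR-497 (log2 fold change -1.19, standard error 0.161, with an adjusted p in edgeR of 1e-05). Amot had no 7mer or 8mer in its 3′ UTR and 16 in its coding sequence, counted with overlaps.

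Nf2 encodes merlin, a membrane-linked scaffold that activates the Lats kinases. It measured 169.9, 174 and 176 CPM with NC and 96.4, 113 and 100.01 CPM with miR-497, with no overlap. It fell to 59.6% of the NC level (log2 fold change -0.75, standard error 0.0603, with an adjusted p in edgeR of 2.8e-08), and its longest 3′ UTR, of 2378 bases, held 2 matches. The coding sequence of Nf2 held 1, as did those of Map4k4 and Wwc2, which were higher. Taok2, a kinase upstream of the Mst kinases, had a log2 fold change of -0.17 (standard error 0.0623, with an adjusted p in edgeR of 0.03), which was no longer called without NC library 2, NC library 3 or miR-497 library 1 (edgeR adjusted p-values of 0.089, 0.1 and 0.16) or with DESeq2 size factors or upper-quartile scaling (0.055 and 0.1).

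The 4 higher upstream genes had log2 fold changes of 0.24 to 0.47. Mob1b, a coactivator of the Lats kinases, measured 76.6, 74.03 and 82.9 CPM with NC and 113, 102 and 108 CPM with miR-497 (log2 fold change 0.47, standard error 0.0612, with an adjusted p in edgeR of 7e-06). Map4k4, a kinase that can act on Lats in parallel with Mst, had a log2 fold change of 0.34 (standard error 0.0576, with an adjusted p in edgeR of 0.00012). Wwc2, a Kibra relative, had 0.26 and an edgeR adjusted p of 0.00065. Of the Mst kinases that head the cascade, Stk4 rose from 114 ± 2.14 to 134 ± 2.57 CPM (SD over 3 libraries; log2 fold change 0.24, edgeR adjusted p = 0.00066). Stk3, the other Mst kinase, measured 79.5 ± 4.77 and 84.4 ± 1.09 CPM (SD, n = 3) and did not pass (edgeR adjusted p = 0.25). The Mst partner Sav1, with 0.04, and Mob1a, with -0.07, did not pass either, with edgeR adjusted p-values of 0.66 and 0.39. In Sav1, 25.4% of exon bases also lie under a gene on the other strand. Mob1b and Stk4 each held 2 seed matches in the longest 3′ UTR and were higher. Wwc2, also higher, held 1 in both its longest and its shortest. Among the others with a match in the longest, Stk38l and Nf2 were lower, and Wwc1, Taok1, Stk38, Amotl1 and Ptpn14 did not pass. A match in the annotation thus did not go with a fall in every gene of the list. In all, 10 of the 18 upstream genes had a match in the longest 3′ UTR and 5 in the shortest, where Nf2, Mob1b and Stk4 had none. Over all tested genes with a 3′ UTR, the shares were 28.1% and 16.6%.

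The 6 listed cofactors and Ajuba relatives gave 4 tested genes, of which 1 was higher and 1 lower, a called share of 50% beside 49.8% of all tested genes. Vgll1 and Vgll2, vestigial-like proteins that bind Tead in place of Yap1, were listed at 0 counts in all 6 libraries. Vgll3, of the same family, measured 10.5, 9.91 and 10.2 CPM with NC and 16.3, 19.5 and 14.4 CPM with miR-497, a log2 fold change of 0.71 (standard error 0.118, with an adjusted p in edgeR of 8.7e-05). Vgll4, which competes with Yap1 for Tead, had 0.06 and did not pass (edgeR adjusted p = 0.40). Wtip, a LIM protein related to Ajuba, fell from 26.6 ± 0.910 to 13.1 ± 0.257 CPM (SD over 3 libraries; log2 fold change -1.03, standard error 0.0852, with an adjusted p in edgeR of 3.7e-08) and had no match in its 3′ UTR. Limd1, another of these LIM proteins, had 0.04 and did not pass (edgeR adjusted p = 0.56). Wtip and Limd1 each held 1 match in the coding sequence.

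**Figure D4:**
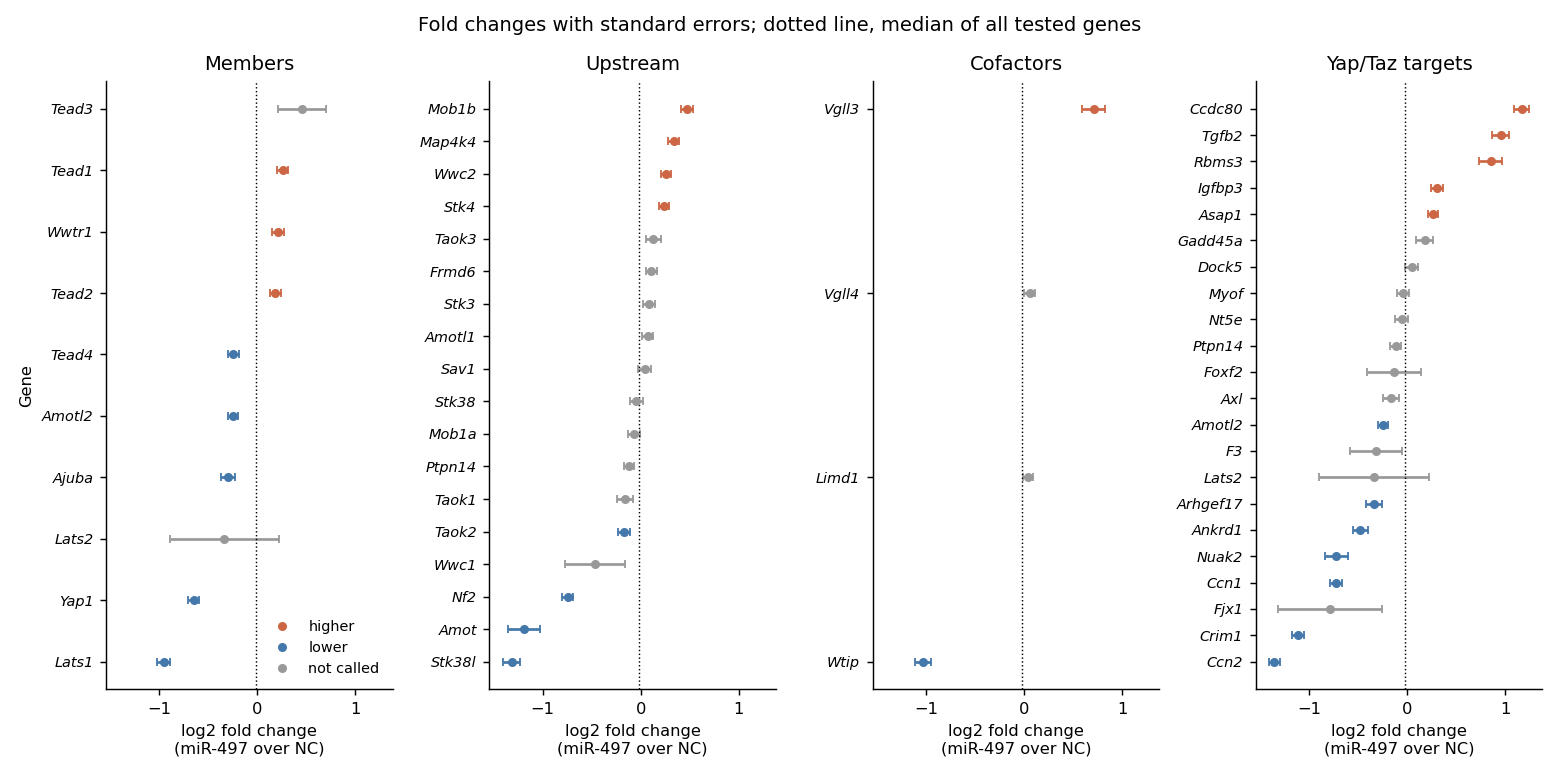
Log2 fold changes (miR-497 over NC) with standard errors for the members, 18 upstream genes, 4 tested cofactors and 22 Yap/Taz targets, coloured by the call at an adjusted p under 0.05, with a dotted line at the median of all tested genes. Members and listed genes lie on both sides of the line, with Ccn2 and Stk38l farthest to the left and Ccdc80 farthest to the right.

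Genes that Yap1, Taz and Tead are known to activate were followed with a list of 22 targets, which includes Lats2 and Amotl2. Of these, 7 were lower, 5 higher and 10 did not pass, with a median log2 fold change of -0.15. Without Lats2 and Amotl2 the counts were 6 lower, 5 higher and 9 not passing, and the median was -0.13. The called share of 54.5% is close to the 49.8% over all tested genes, and 31.8% of the list was lower beside 26.0%, so the list as a whole did not move one way.

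The 3 targets most often used as readouts were nevertheless all lower. Ccn2, a secreted matrix protein also called connective tissue growth factor, measured 439, 449 and 443 CPM with NC and 179, 179.8 and 162 CPM with miR-497. It fell to 39.1% of the NC level (log2 fold change -1.36, standard error 0.0555, with an adjusted p in edgeR of 8.8e-12). In Ccn2, 23.2% of exon bases also lie under a gene on the other strand, whose reads cannot be told apart without strand, and its 3′ UTR held 1 match. Ccn1, a secreted relative also called Cyr61, measured 127, 131 and 128 CPM with NC and 84.95, 76.5 and 72.02 CPM with miR-497 (log2 fold change -0.73, standard error 0.0619, with an adjusted p in edgeR of 5.4e-08). Ankrd1, an ankyrin-repeat protein, measured 49.99, 43.7 and 43.3 CPM with NC and 34.8, 33.2 and 30.4 CPM with miR-497 (log2 fold change -0.48, standard error 0.0791, with an adjusted p in edgeR of 8e-05). None of the 3 overlapped between groups, and neither Ccn1 nor Ankrd1 had a 7mer or 8mer in the longest 3′ UTR.

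Other targets divided. Crim1, a transmembrane protein with cysteine-rich repeats, fell from 194 ± 14.1 to 89.5 ± 2.95 CPM (SD over 3 libraries; log2 fold change -1.12, standard error 0.0591, with an adjusted p in edgeR of 1.8e-10) and held 2 seed matches in its longest 3′ UTR and none in its shortest. Over the 22 targets, 9 had a match in the longest and 4 in the shortest, beside 28.1% and 16.6% of all tested genes. Nuak2, a kinase, had a log2 fold change of -0.72 (standard error 0.122, with an adjusted p in edgeR of 1e-04), also with 2 matches. In the opposite direction, Ccdc80, a secreted matrix protein, rose from 15.2 ± 0.469 to 34.05 ± 0.702 CPM (SD over 3 libraries; log2 fold change 1.17, standard error 0.0783, with an adjusted p in edgeR of 3e-09). Tgfb2, a growth factor, rose by 0.95 (standard error 0.0841, with an adjusted p in edgeR of 7.9e-08), the RNA-binding protein Rbms3 by 0.85 (standard error 0.120, with an adjusted p in edgeR of 1.7e-05) and the IGF-binding protein Igfbp3 by 0.31 (standard error 0.0607, with an adjusted p in edgeR of 0.00046). Ccdc80, Tgfb2 and Rbms3 had no match in the longest 3′ UTR, while Igfbp3 had 1 and the other higher target, Asap1, had 2. In the coding sequence, Crim1 held 6 and Rbms3 and Asap1 1 each, while Nuak2, Ccdc80, Tgfb2 and Igfbp3 held none.

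**Figure D5:**
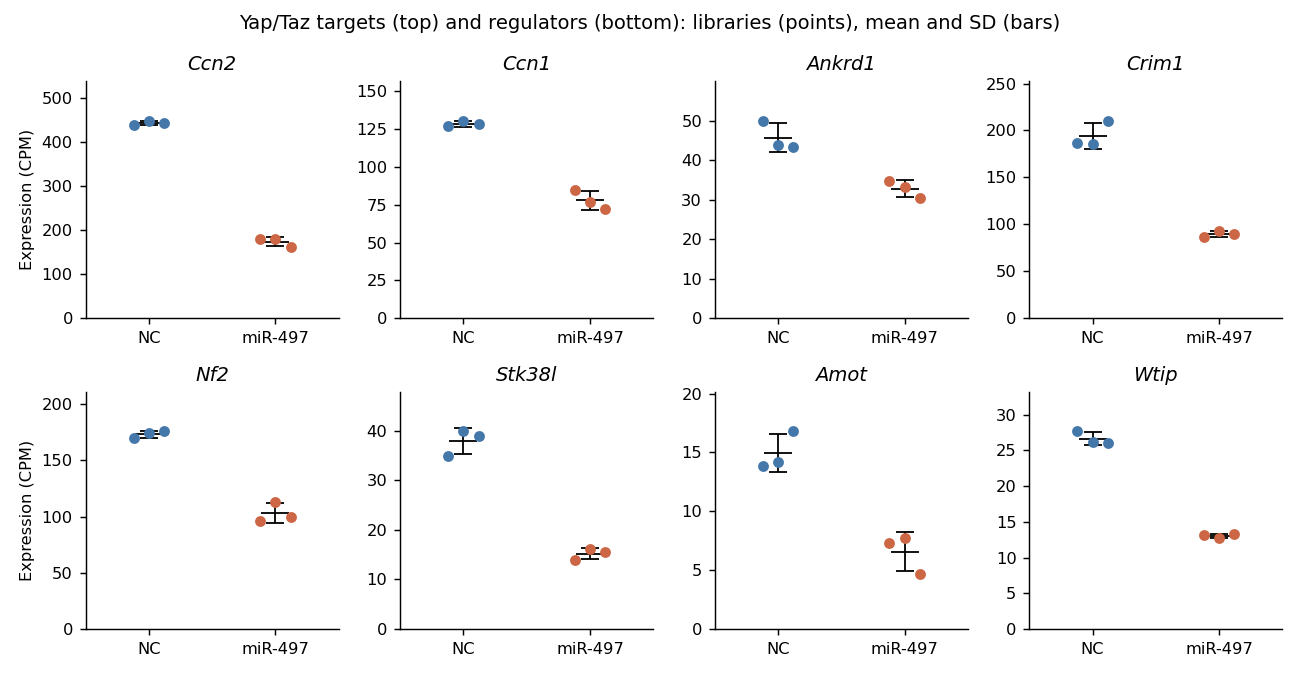
Expression in CPM for 4 Yap/Taz targets (Ccn2, Ccn1, Ankrd1 and Crim1) and 4 regulators (Nf2, Stk38l, Amot and Wtip), each axis from 0, with points for libraries and bars for the mean and SD of 3 libraries. In all 8 panels every miR-497 library lies below every NC library.

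The promoters of the members were searched for GGAATG on both strands (CATTCC where it lies on the other strand), a core word bound by Tead proteins. RefSeq windows from 250 bases before to 50 after a start site were given for 8 of the 10 members, all but Tead1 and Tead4. The word was present for 6 of these, Yap1, Wwtr1, Tead3, Lats2, Amotl2 and Ajuba, and it was present in 14.7% of all 32851 windows and for 16.6% of all genes with a window. Some members have more than 1 window. The longer word GGAATGT was found for Yap1, Tead3, Amotl2 and Ajuba, and for 4.47% of all genes. The word was present in members that were lower (Yap1, Amotl2, Ajuba), higher (Wwtr1) and not called (Tead3, Lats2), and a match only describes the letters. It was absent for Lats1, which had the largest fall of the members, and for Tead2, which was higher. The windows of Yap1, Amotl2 and Ajuba are shown because these 3 members fell and hold the longer word. Tead3, which also holds the longer word and was not called, is not shown. They are on the gene's own strand, 5′ to 3′ (GRCm38.p6), with the word in capitals.
Yap1, chr9:8004547-8004846, minus strand: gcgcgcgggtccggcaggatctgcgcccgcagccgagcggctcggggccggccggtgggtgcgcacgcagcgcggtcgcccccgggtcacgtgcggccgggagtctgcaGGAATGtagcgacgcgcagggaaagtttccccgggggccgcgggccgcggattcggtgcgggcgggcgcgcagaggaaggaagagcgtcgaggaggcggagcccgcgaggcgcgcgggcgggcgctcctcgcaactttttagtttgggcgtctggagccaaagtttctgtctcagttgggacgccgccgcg
Amotl2, chr9:102717554-102717853, plus strand: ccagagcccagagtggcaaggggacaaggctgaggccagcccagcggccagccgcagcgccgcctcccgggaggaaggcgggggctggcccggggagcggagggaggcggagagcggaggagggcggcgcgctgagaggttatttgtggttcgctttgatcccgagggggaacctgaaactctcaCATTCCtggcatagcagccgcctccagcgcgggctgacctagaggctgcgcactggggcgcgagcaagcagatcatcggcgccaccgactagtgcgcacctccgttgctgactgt
Ajuba, chr14:54577612-54577911, minus strand: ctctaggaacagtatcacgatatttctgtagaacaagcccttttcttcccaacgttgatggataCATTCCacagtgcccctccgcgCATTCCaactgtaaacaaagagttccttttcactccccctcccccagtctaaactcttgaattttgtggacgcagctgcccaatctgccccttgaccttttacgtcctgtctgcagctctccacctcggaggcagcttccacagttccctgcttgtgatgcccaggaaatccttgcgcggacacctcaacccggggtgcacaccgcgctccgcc
Yap1 and Amotl2 each held the word once and Ajuba 2 times.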

How the data were processed

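Poly(A)-selected RNA from 6 libraries was sequenced, per the labels' protocols. The values deposited by the authors are raw counts of reads per gene, not normalized, per the labels and the table itself. The submitters' processing notes name STAR 2.5.4b, featureCounts, Subread 1.6.1, edgeR 3.32.1 and GRCm38. The annotation release, the strand setting and the handling of reads with several alignments are not given in the sources used here. GENCODE M21 (GRCm38) gave symbols for 55141 of 55401 identifiers, exon lengths and 3′ UTRs.

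Counts were filtered with filterByExpr (minimum count 10, minimum total 15), scaled by TMM and tested with the edgeR 4.0.16 quasi-likelihood F-test in R 4.3.3, with group as the only term. All adjusted p-values are 2-sided Benjamini-Hochberg values over all 14661 genes tested. A standard error is the log2 fold change divided by the square root of F. CPM and RPKM use TMM-scaled library sizes. The fit was also run on simulated data, and the outcome of that run is not reported here. Alternatives were DESeq2 1.42.0 (size factors and Wald test), limma 3.58.1 voom, upper-quartile scaling, 2 other filters, a replicate block and leaving out each library. The same replicate numbers occur in both groups. Sequences were searched with Python 3.11.15.

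The members and lists were chosen with earlier results of these data known, and the lists were written from general knowledge. The text names all members, Ccn1, Ccn2, Ankrd1, Stk3 and Stk4 and, of each list, up to 4 called genes per direction with the largest change and a mean log2 CPM of at least 2. Sav1, Mob1a, Wwc1, Taok1, Stk38, Amotl1, Ptpn14, Frmd6, Vgll1, Vgll2, Vgll4, Limd1, Asap1, Myof and Foxf2 were named after their values were seen. No test was made on the lists as sets.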

Additional observations from a re-analysis of the deposited data

How the results depend on the processing

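The 5 lower members kept their direction and their call under all 13 alternatives to the fit, with log2 fold changes of -0.69 to -0.60 for Yap1, -1.01 to -0.91 for Lats1, -0.29 to -0.20 for Tead4, -0.27 to -0.20 for Amotl2 and -0.33 to -0.24 for Ajuba, as did Tead1 among the higher ones (0.22 to 0.31). Leaving out 1 library gave 1 to 3 higher members, with Wwtr1 from 0.17 to 0.28 and Tead2 from 0.15 to 0.22; both calls were lost only without NC library 2. Lats2, never called, ran from -0.68 to 0.29 in those fits, and Mob1a from -0.11 to 0.00080, Myof from -0.084 to 0.025 and Foxf2 from -0.33 to 0.0068, none of them called. Upper-quartile scaling gave Myof 0.0060; it moved the median of all genes by 0.05 on the log2 scale. The shortest 3′ UTR, which holds fewer bases, left 2 members with a seed match in place of 6. Over all tested genes with a 3′ UTR, the shares were 16.6% and 28.1%. The counts over all genes were 3029 to 3998 higher and 3374 to 3995 lower. Calls were also gained in the lists. With upper-quartile scaling, 6 upstream genes were higher and 3 lower, with Frmd6 and Amotl1 gained among the higher. Without a filter, 5 upstream genes were lower, with Taok1 gained. Among the Yap/Taz targets, 6 were higher with upper-quartile scaling and 8 lower without a filter. The log2 Yap1 to Wwtr1 difference ran from -0.88 to -0.84 and the Lats1 to Lats2 difference from -1.24 to -0.35 without single libraries.

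With the replicate block, 3177 genes were higher and 3563 lower, no member changed its call, and the Yap1 to Wwtr1 difference stayed at -0.86. The deviations of same-numbered libraries correlated at -0.12, -0.04 and -0.13 and 0 of 6 libraries correlated best with its own number. With 3 libraries per group, that cannot tell whether same-numbered samples were prepared together, and the labels do not say. Depth limits Lats2 (8 to 24 counts) and Tead3 (70 to 132 counts).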
